A study of Mus musculus with 6 samples.

Results

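Annotated retained-intron transcripts are gene models in which a stretch that other transcripts of the same gene splice out is part of an exon. The set described here comprised 15425 such transcripts. They were chosen by their GENCODE transcript type, retained intron, in protein-coding genes whose gene total was at least 100 estimated counts in every library. They are 15425 of the 21402 retained-intron transcripts of protein-coding genes in a table of 142435 transcripts, and they lie in 5955 of the 9670 protein-coding genes that reached that total. For each one the measure was its share, the percent of the counts of its gene that were assigned to it.

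The RNA came from CD8+ T cells of OT-I mice, which carry a transgenic T cell receptor for a fragment of ovalbumin, taken from spleen and lymph nodes. In the N4 group the cells were collected at day 4 after the N4 peptide, the ovalbumin fragment itself, and in the T4 group at day 4 after T4, an altered peptide that stimulates the same receptor more weakly. Both peptides were given with antibodies to the costimulatory receptors OX40 and 4-1BB. The naive group held OT-I cells labelled only as naive. Each of the 3 groups had 2 libraries, and the labels used here do not say whether these came from separate mice, so every p-value measures the spread between libraries, which may be technical. Every group carried the OT-I receptor, and the labels used here do not give the sex or age of the mice.

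An intron is removed from a transcript by the spliceosome, which joins the exons on either side after recognising a GT at the start of the intron and an AG at its end. A polyadenylated transcript that keeps an intron is often held in the nucleus, or, once translated, can be degraded when the intron brings a stop codon into the reading frame. Intron retention is known to vary with T cell activation, and genes of splicing factors are among those with well-studied retained introns. A retained-intron model also contains ordinary exons, so its share is not the fraction of transcripts in which the intron stayed.

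The models differed in how much of an intron they hold. In 4771 of them (30.9%) an exon covered at least 1 whole intron of a coding transcript of the gene, in 10589 (68.6%) it covered part of an intron, and 65 held no base outside the exons of coding transcripts. The 4771 models held 6569 whole introns, counted once per model. Their median length was 243 bases and their median GC content 51.4%, and 98.3% began with GT and ended with AG. Of these introns, 94.5% lay between coding exons, and 88.3% of the 6208 with a known reading frame held a stop codon in the frame of the exon before. The median gene held 2 members, 2119 genes held 1, and Cspp1 held the most with 16.

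The introns below are examples chosen after the values were seen, and other members with a difference are not printed. Those of Rrp9, Scrn2, Farsa, Paf1 and Rabggta, and of Saraf further on, belong to members that passed the test described later. Shisa5-213 did not pass it and is shown as one of the members with the most counts, and Ppia-204 because its share hardly varied. The letters are those of the GENCODE M21 transcript models and the coordinates are on GRCm38. Each line gives the last 10 bases of the exon before, the intron, and the first 10 bases of the exon after, 5′ to 3′ in the sense of the gene. Capitals mark the first 2 and last 2 bases of the intron and, where there is one, the first stop codon in the reading frame of the exon before. The Rrp9 intron spans chr9:106483037-106483118 on the plus strand, is 82 bases long with 61.0% GC, is intron 7 of 14, and has no such stop codon. The Scrn2 intron spans chr11:97032971-97033063 on the plus strand, is 93 bases long and is intron 5 of 7. The Farsa intron spans chr8:84867649-84867752 on the plus strand, is 104 bases long and is intron 9 of 12. The Paf1 intron spans chr7:28395540-28395628 on the plus strand, is 89 bases long and is intron 4 of 13. The Rabggta intron spans chr14:55719143-55719239 on the minus strand, is 97 bases long and is intron 10 of 16. The Shisa5 intron spans chr9:109056094-109056286 on the plus strand, is 193 bases long and is intron 4 of 5. The Ppia intron spans chr11:6418132-6418225 on the plus strand, is 94 bases long with 23.4% GC, is intron 2 of 4, and has no such stop codon.
Rrp9-203: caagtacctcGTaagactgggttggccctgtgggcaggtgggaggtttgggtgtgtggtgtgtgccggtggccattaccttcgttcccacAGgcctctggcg
Scrn2-202: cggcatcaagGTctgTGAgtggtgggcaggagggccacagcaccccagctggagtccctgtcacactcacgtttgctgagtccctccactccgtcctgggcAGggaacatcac
Farsa-203: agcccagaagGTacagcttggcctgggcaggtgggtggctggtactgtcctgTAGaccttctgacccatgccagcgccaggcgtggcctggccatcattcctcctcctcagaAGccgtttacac
Paf1-202: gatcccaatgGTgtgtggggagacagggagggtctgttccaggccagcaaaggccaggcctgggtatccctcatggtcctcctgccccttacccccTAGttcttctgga
Rabggta-209: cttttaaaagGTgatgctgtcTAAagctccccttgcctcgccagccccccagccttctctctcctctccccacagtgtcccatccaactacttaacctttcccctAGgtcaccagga
Shisa5-213: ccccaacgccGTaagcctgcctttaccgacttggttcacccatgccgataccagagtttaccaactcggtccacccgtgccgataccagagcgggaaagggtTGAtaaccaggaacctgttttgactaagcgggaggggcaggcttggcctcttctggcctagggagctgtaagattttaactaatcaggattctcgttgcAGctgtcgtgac
Ppia-204: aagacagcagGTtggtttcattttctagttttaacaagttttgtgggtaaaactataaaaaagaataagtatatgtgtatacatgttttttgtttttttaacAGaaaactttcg

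The intron of Saraf-204 is too long to print whole. It spans chr8:34167858-34168456 on the plus strand, is 599 bases long, is intron 4 of 5, and a stop codon in the frame of the exon before begins at its base 2. Its 2 ends are given with 10 exon bases each, and capitals mark the first 2 and last 2 bases of the intron.
Saraf-204 start of the intron: gcagcaacagGTaagttttgtgctagtctc
Saraf-204 end of the intron: ctgccttttgtgtcttccAGagcggcgacg
The retained introns of Rrp9, Scrn2, Farsa, Paf1 and Rabggta were between 82 and 104 bases long, a range that comes from the choice of examples. Members that passed the test but are not printed held whole introns of up to 1443 bases. Among them are Pigq-211 with 277 bases, Uros-206 with 492, and Akap8l-206 with introns of 102 and 1443. All of the introns shown lie between coding exons.

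The libraries held 269033066 to 335968843 estimated counts. The 10 CD8 T cell markers were all detected in every library, with summed levels of 4980 and 6350 CPM (counts scaled to the library total and its TMM factor, a trimmed-mean correction) with N4, 4130 and 4410 with T4, and 6000 and 7570 in naive. Markers of other cells were present too and moved with the groups. The 12 neutrophil markers summed to 49.6 and 39.3 CPM with N4, 16.9 and 8.85 with T4, and 2510 and 25500 in naive, and the 12 macrophage and monocyte markers to 22.5 and 19.2, 272 and 259, and 2260 and 2670. The 8 red cell markers summed to 426 and 362 CPM with N4, 6620 and 8210 with T4, and 3490 and 9260 in naive. B cell markers summed to 4.31 and 2.74 CPM with N4, 59.3 and 57.3 with T4, and 26.2 and 66.6 in naive, dendritic cell markers to 88.9 and 66.4, 570 and 554, and 2100 and 1340, and natural killer cell markers to 47.1 and 35.4, 372 and 407, and 932 and 2940. In both N4 libraries Cxcr2, Ltf, Adgre1, Alas2, Siglech and Klrb1b were among the markers at 0, and no marker was at 0 in both T4 or both naive libraries. The marker genes of all these other cells held few members: 1 neutrophil, 1 macrophage, 1 B cell, 6 dendritic cell, 3 red cell and no natural killer cell marker hosted one. Members were at 0 more often in N4 (21.1% and 25.8%) and naive replicate 2 (22.6%) than in T4 (11.8% and 12.2%) and naive replicate 1 (11.8%). The other transcripts of all 9670 eligible genes, including genes without a member, showed the same order. Of these, 41.5% and 43.9% were at 0 with N4, 32.7% and 33.2% with T4, and 33.9% and 42.7% in naive. The part of other cells in the results that follow was not tested.

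Summed over all members, retained-intron transcripts took a smaller part of the counts in N4 than in T4. Their pooled share of the counts of the eligible genes was 3.18% and 3.25% with N4, 4.35% and 4.24% with T4, and 4.33% and 3.64% in naive. Both N4 libraries lay below all 4 others, and naive replicate 1 lay between the T4 libraries. N4 was -1.1 points from T4 (combined SD 0.093, n = 2 and 2), and -0.77 points from naive (SD 0.49). T4 was 0.31 points above naive (SD 0.49), less than the spread, and without naive replicate 2 the sign turned, to -0.036. With 2 libraries per group the smallest p that exact permutation allows is 0.33, so these differences carry no p. Restricted to genes whose mean CPM differed by less than 1.5-fold between N4 and T4, the difference was -0.56 points with an SD of 0.42, and without members whose exons overlap another gene it was -0.65 points.

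The difference lay mainly in the models that hold a whole intron. These took 2.03% and 2.02% of the counts with N4, 3.04% and 2.87% with T4, and 3.04% and 2.47% in naive. Models that hold part of an intron took 1.15% and 1.23%, 1.31% and 1.37%, and 1.28% and 1.17%, so that the N4 and naive libraries overlapped. Transcripts of the eligible genes with the annotated type nonsense-mediated decay took 2.16% and 1.62% with N4, 3.26% and 1.61% with T4, and 1.76% and 1.3% in naive. Their libraries overlapped between all groups.

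With genes weighed equally, the order of N4 and T4 depended on the summary. The median over the 5955 host genes of the summed member share was 1.87% and 2.11% with N4, 2.85% and 3.20% with T4, and 2.45% and 2.12% in naive. The mean over the same genes gave no such order, at 9.78% and 11.1% with N4, 10.3% and 10.7% with T4, and 9.48% and 10.5% in naive. Host genes with a summed share of at least 50% numbered 301 and 384 with N4, 286 and 292 with T4, and 254 and 338 in naive, so both N4 libraries lay above both T4 libraries there. Gene by gene, the median difference was small: -0.15 points for N4 minus T4, -0.027 points for N4 minus naive and 0.049 points for T4 minus naive. In 3518 genes the N4 mean was below the T4 mean, in 2352 above it and in 85 equal. Large differences were as frequent in either direction, with 455 genes at least 10 points lower and 467 at least 10 points higher in N4.

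**Figure D1:**
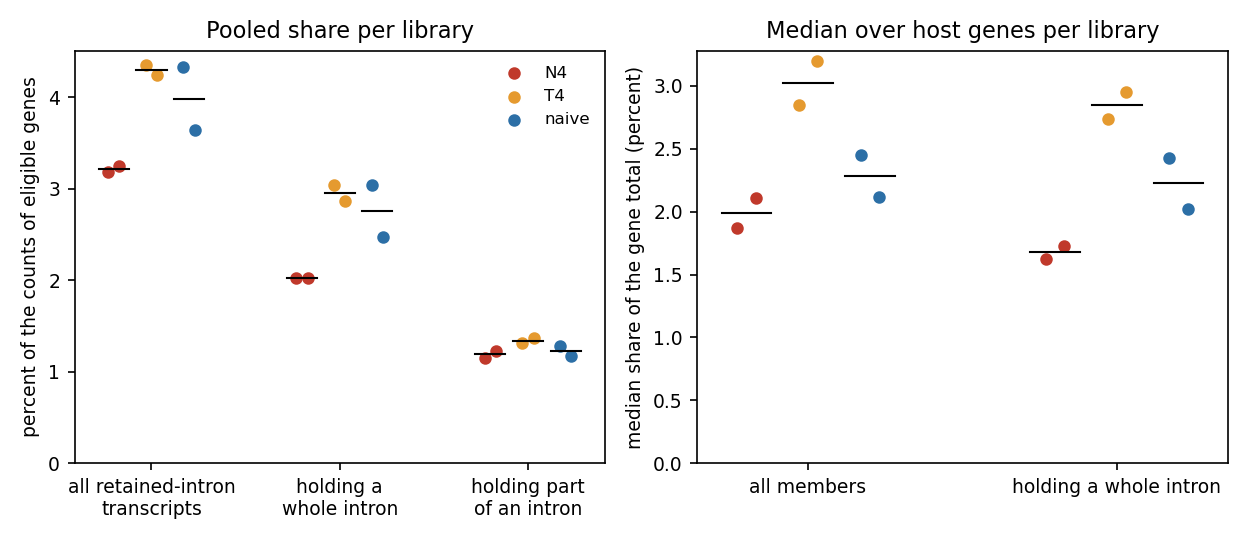
Left, percent of the counts of eligible genes assigned to retained-intron transcripts in each library, for all members and for those that hold a whole intron or part of one; right, median over host genes of the summed share. Points are libraries, coloured by group (N4, T4, naive), and bars are the mean of 2 libraries. Both N4 libraries (3.18% and 3.25%) lie below the 4 others in the pooled share.

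The same lean was seen when transcripts were counted. Of the 14847 members with a count in any library, 4250 (28.6%) had shares in both N4 libraries below both T4 libraries, beside 23.4% of all transcripts of the eligible genes, and 2396 (16.1%) had shares above, beside 16.2%. Among members that hold a whole intron 34.5% were lower and 13.1% higher, and among those that hold part of one 26% were lower and 17.4% higher. The other transcript types gave 24.4% lower for decay targets, 22.7% for processed transcripts and 20.5% for protein-coding ones. Against naive, 21.0% of the members were lower in N4, beside 17.5% of all transcripts, and 16.2% higher, beside 15.7%. In T4 against naive 21.5% were higher, beside 19.2%, and 13.9% lower, beside 14.0%. N4 against T4 and N4 against naive share the N4 libraries, so these comparisons are not independent of each other. Summed by host gene, 1857 genes (31.2% of 5955) were lower in N4 than T4 without overlap and 957 (16.1%) were higher. Against naive 1399 genes (23.5%) were lower and 1089 (18.3%) higher in N4, and 1432 (24.0%) higher and 852 (14.3%) lower in T4.

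**Figure D2:**
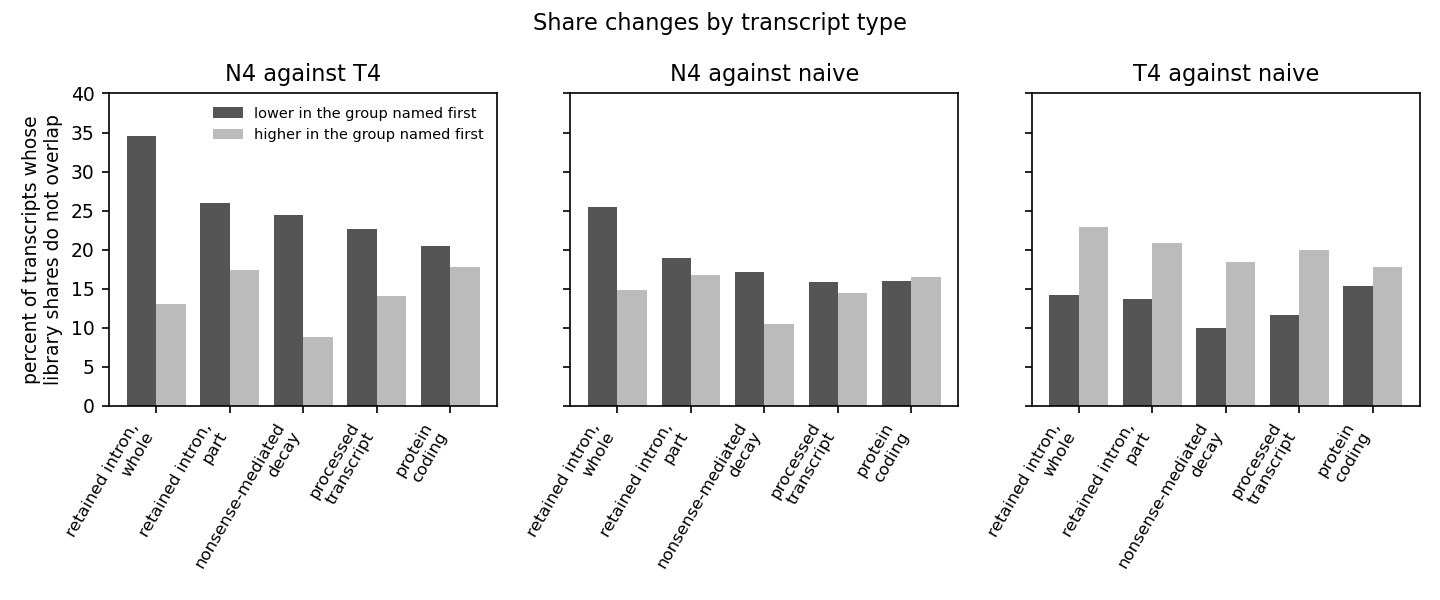
Percent of transcripts of eligible genes whose shares in the 2 libraries of the group named first all lie below (dark bars) or above (light bars) those of the other group, by transcript type, for the 3 comparisons. Retained-intron transcripts that hold a whole intron have the tallest dark bar in N4 against T4 (34.5%).

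The share of members lower in N4 varied little over intron length and more over the position of the intron in the gene. Among the 2254 members with exactly 1 whole intron, in genes with at least 1000 counts in every library, 36.7% were lower in N4 than T4 without overlap and 13% higher. Of all transcripts of the eligible genes 23.4% were lower and 16.2% higher. Those values carry no limit of 1000 counts, and the share over all transcripts under that limit was not computed. Split into short, middle and long introns of equal numbers, 34.5%, 37.9% and 37.7% of the members were lower, and split in the same way by GC content, 31.7%, 39.9% and 38.6%, from low to high. For the 303 members that hold the first intron it was 46.5%, for the 1773 with an internal one 34.6% and for the 178 with the last one 41.0%. These classes also differed in level. The median share was 2.38% with N4 and 3.14% with T4 for the first intron. It was 0.341% and 0.661% for an internal one, and 0.999% and 1.21% for the last. In T4 against naive 38.6% of the members with the first intron were higher without overlap, against 20.4% of those with an internal one. Of all transcripts of the eligible genes, without the limit of 1000 counts, 19.2% were higher there. Of the 1899 members with an in-frame stop codon 36.8% were lower in N4 than T4 without overlap, and of the 226 without one 34.5%. These are descriptions of the members. No test was made between the classes, and whether the difference by position goes with the difference in level was not tested.

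The lean was compared with that of all transcripts in genes that changed in the same way. Members of genes at least 2-fold lower in N4 than T4 were lower in share without overlap in 30.3% and higher in 17.3%, beside 26.5% and 16.0% of all transcripts of such genes. For genes within 2-fold it was 26.3% and 16.8%, beside 22% and 16.0%. Members of genes at least 2-fold higher in N4 were lower in share in 42% and higher in 9.59%, beside 27.4% and 17.2%. A host gene's level rests on how libraries are scaled. Scaling by library size in place of trimmed means (TMM) moved every log2 difference by -0.86 for N4 against T4, -0.52 for N4 against naive and 0.34 for T4 against naive, whereas the shares do not depend on it. In edgeR's quasi-likelihood test 283 host genes were higher and 296 lower in N4 than T4 at an adjusted p under 0.05 (all genes, 3.48% and 4.47%), and 125 higher and 530 lower when scaled by library size. Against naive, N4 had 399 host genes higher and 408 lower (all genes, 4.87% and 7.18%), or 231 and 436 by library size, and T4 had 2 higher and 5 lower (0.0826% and 0.0348%), or 4 and 4.

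Few single members passed a test of relative use, which asks whether a transcript changed relative to the rest of its gene (edgeR's diffSpliceDGE over 42446 transcripts, of which 10012 were members, Benjamini-Hochberg adjusted p under 0.05). In N4 against T4, 15 members fell and 2 rose, with 0.264% of all transcripts called lower and 0.0707% higher. In N4 against naive, 11 fell and 3 rose (0.207% and 0.0683%). In T4 against naive 3 rose and none fell (0.0613% and 0.0353%). Without regard to direction, 0.17%, 0.14% and 0.03% of the members were called, beside 0.335%, 0.276% and 0.0966% of all transcripts. At an unadjusted p under 0.05 there were 517, 599 and 264 members (5.16%, 5.98% and 2.64%), beside 7.53%, 8.24% and 5.3% of all transcripts. So in each comparison the share of members passing lay below that of transcripts in general, a difference that was not itself tested. Over all members tested, the median log2 change of relative use was -0.41 for N4 against T4 and 61.6% were lower, beside -0.06 and 54.3% over all transcripts. It was -0.21 with 56.0% lower for N4 against naive (all transcripts, -0.01 and 51.5%) and 0.11 with 45.1% lower for T4 against naive (0.02 and 47.2%).

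The calls rest on few libraries and on the method. With limma on the log2 odds of the share, none of the members was called in any of the 3 comparisons. Of the 17 calls of N4 against T4, 2 remained without N4 replicate 1, 2 without N4 replicate 2, 1 without T4 replicate 1, 5 without T4 replicate 2, 12 without naive replicate 1 and 13 without naive replicate 2, and all 17 kept their sign each time. Of the 14 calls of N4 against naive, 4, 3, 4, 4, 6 and 9 remained in the same order, and of the 3 calls of T4 against naive 2, 1, 0, 0, 0 and 1.

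The 19 members called in any comparison lay in 19 genes. Of these members 15 hold a whole intron, as do 30.9% of all members. Each of the 15 has a whole intron between coding exons, and in 14 such an intron has an in-frame stop codon. Both features are usual in the set. Of all whole introns held by members 94.5% lay between coding exons, and 88.3% of those with a known frame held such a stop. Of the 15 members lower in N4 than in T4, 12 were at 0 counts in both N4 libraries, and so were 9 of the 11 lower in N4 than in naive. A total of 11 members were called lower in N4 in both comparisons, which share the N4 libraries.

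Saraf-204 had the most counts of those at 0 in N4. Saraf encodes a regulator of the endoplasmic reticulum that dampens store-operated calcium entry. Its share was 0% and 0% with N4, 41.0% and 38.5% with T4, and 36.3% and 36.8% in naive, from 0 and 0, 31816 and 26315, and 44769 and 12898 counts. The N4 libraries lay apart from the other 4, which ran from 36.3% to 41.0%. The gene itself had 15635 and 13086 counts in N4, so a count of 0 allows a share of up to 0.0192% and 0.0229% there (3 counts of the gene total, counting error only, and too low a limit if the estimated counts exceed the reads). With that floor per library the mean share was at least 1890-fold lower in N4 than in T4, with an adjusted p of 0.0018 by edgeR, and at least 1740-fold lower than in naive, with an adjusted p of 0.0023. The transcripts of Saraf other than Saraf-204 were at 67.4 ± 4.9 CPM in N4, 111 ± 3.6 in T4 and 134 ± 64 in naive (mean ± SD, n = 2), TMM scaled.

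Rrp9-203, from a gene for a protein of the U3 small nucleolar ribonucleoprotein that acts in ribosomal RNA processing, had the smallest adjusted p. Its share was 0% and 0% with N4, 33.9% and 36.9% with T4, and 34.8% and 39.5% in naive. The gene had 5516 and 1246 counts in N4, which allow up to 0.0544% and 0.241% by the same floor, with the same limit. Its mean share was at least 240-fold lower in N4 than in T4 (edgeR adjusted p = 0.00035) and at least 252-fold lower than in naive (edgeR adjusted p = 0.00038). T4 and naive overlapped, and the retained intron is the one of 82 bases printed above.

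Further members had the same pattern, at 0 in both N4 libraries and well above 0 in the other 4. Uros-206, from the gene for uroporphyrinogen III synthase of the haem pathway, had shares of 0% and 0% with N4, 29.8% and 33.8% with T4, and 34.9% and 44.6% in naive (edgeR adjusted p = 0.0091 against T4 and 0.0072 against naive). Scrn2-202, from the gene for secernin 2, had 0% and 0%, 36.3% and 21.5%, and 34.8% and 28.3% (edgeR adjusted p = 0.0026 and 0.0027). Akap8l-206, from a gene for a nuclear protein related to A-kinase anchor protein 8, had 0% and 0%, 49.5% and 19.3%, and 46.1% and 48.2% (edgeR adjusted p = 0.00089 and 0.00064). In all of these the 4 libraries of T4 and naive lay far above both N4 libraries.

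Several others were at 0 in N4 but uneven elsewhere. Farsa-203, from the gene for the alpha chain of phenylalanyl-tRNA synthetase, had shares of 71.2% and 12% in T4 and 61.7% and 52.7% in naive. Paf1-202, from a gene of the elongation complex PAF1, had 38% and 0.741% in T4 and 60.9% and 81.6% in naive. Rabggta-209, from the gene for the alpha subunit of Rab geranylgeranyl transferase, had 58.3% and 39.3% in T4 and 59.8% and 24.5% in naive. The 2 libraries of a group differed several-fold in some of these, and the value of 0 in N4 was what they shared. Fyttd1-214, from the gene for an mRNA export adaptor, had 28.5% and 16.5% in T4 and 38.7% and 9.83% in naive. Tpp1-206, from the gene for a lysosomal peptidase, had 7.96% and 20.3% in T4 and 3.28% and 1.48% in naive, and was called against T4 only. Gga2-205, from the gene for a clathrin adaptor, had 43.1% and 56.7% in T4 and 13.5% and 12.8% in naive, and was called against T4 only. The adjusted p of these 6 against T4 by edgeR ran from 0.028 (Paf1-202) to 0.044 (Farsa-203). Against naive it ran from 0.012 to 0.045 in the 4 called, and was 0.14 for Tpp1-206 and 0.1 for Gga2-205. A difference between the 2 comparisons was not tested.

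T4 stood apart in another 2. Pigq-211, from a gene for an enzyme complex that begins the synthesis of glycosylphosphatidylinositol anchors, had shares of 47.4% and 69.8% in T4 and 0% in the 4 other libraries. It was higher in T4 than in N4 (edgeR adjusted p = 0.0026) and than in naive (edgeR adjusted p = 0.004). With the floor of 3 counts per library the folds were at least 291 and at least 973. That floor covers counting error only and has the limit given for Saraf-204. Commd1-205, from a gene for a regulator of copper handling and NF-kappa-B, had 15.7% and 29.7% in T4, 0.178% and 0.167% in N4, and 0.178% and 0.197% in naive. Its relative use was lower in N4 than in T4 (log2 -7.05 ± 1.44 SE, edgeR adjusted p = 0.036). Commd1-205 was not among the members called in T4 against naive, though the summed share of its gene was, as given further on. The exons of Pigq-211 and of Commd1-205 each overlap those of another gene. The kit does not mark strand, so reads of that gene cannot be told apart from those of the member.

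Of the remaining members lower in N4, Bud31-204, from a gene for a spliceosome component, had shares of 0.0332% and 0.0273% with N4, 3.45% and 4.62% with T4, and 3.37% and 3.42% in naive. Its relative use was -7.06 ± 0.91 (log2, SE) against T4 and -6.81 ± 0.90 against naive, with edgeR adjusted p of 0.024 and 0.031, and its exons also overlap those of another gene. Rps18-207, from the gene for a protein of the small ribosomal subunit, had 0.251% and 0.671% with N4, 18.5% and 1.65% with T4, and 20.4% and 0.594% in naive. It was called lower in N4 than in T4 (log2 -4.34 ± 0.85, edgeR adjusted p = 0.012) and than in naive (log2 -3.97 ± 0.84, edgeR adjusted p = 0.027). The high shares came from replicate 1 in both T4 and naive, and the naive libraries overlapped those of N4.

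The members called higher in N4 than in T4 or naive were fewer. Klhl20-203, from a gene for a substrate adaptor of a cullin ubiquitin ligase, had shares of 88.4% and 75.9% in N4 and 0% in the other 4 libraries, from 373 and 619 counts. With the same floor, and its limit, Klhl20-203 was at least 282-fold higher than in T4 and at least 244-fold higher than in naive (edgeR adjusted p = 0.027 and 0.029). Pkmyt1-205, from the gene for a kinase that inhibits CDK1, had 4.32% and 4.13% with N4, 0% and 0% with T4, and 1.15% and 3.71% in naive. For N4 it was called against T4 only (edgeR adjusted p = 0.037), and T4 was the only group at 0. Mcm3-202, from a gene of the replicative helicase, had 5.96% and 58.6% with N4, 7.78% and 18.4% with T4 and 0% and 0% in naive. Psmc4-204, from the gene for an ATPase of the proteasome base, had 3.82% and 7.0% with N4, 1.73% and 5.11% with T4 and 0% and 0% in naive. Both were higher in either peptide group than in naive, with edgeR adjusted p of 0.013 in N4 for each, and of 0.036 for Mcm3-202 and 0.034 for Psmc4-204 in T4.

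**Figure D3:**
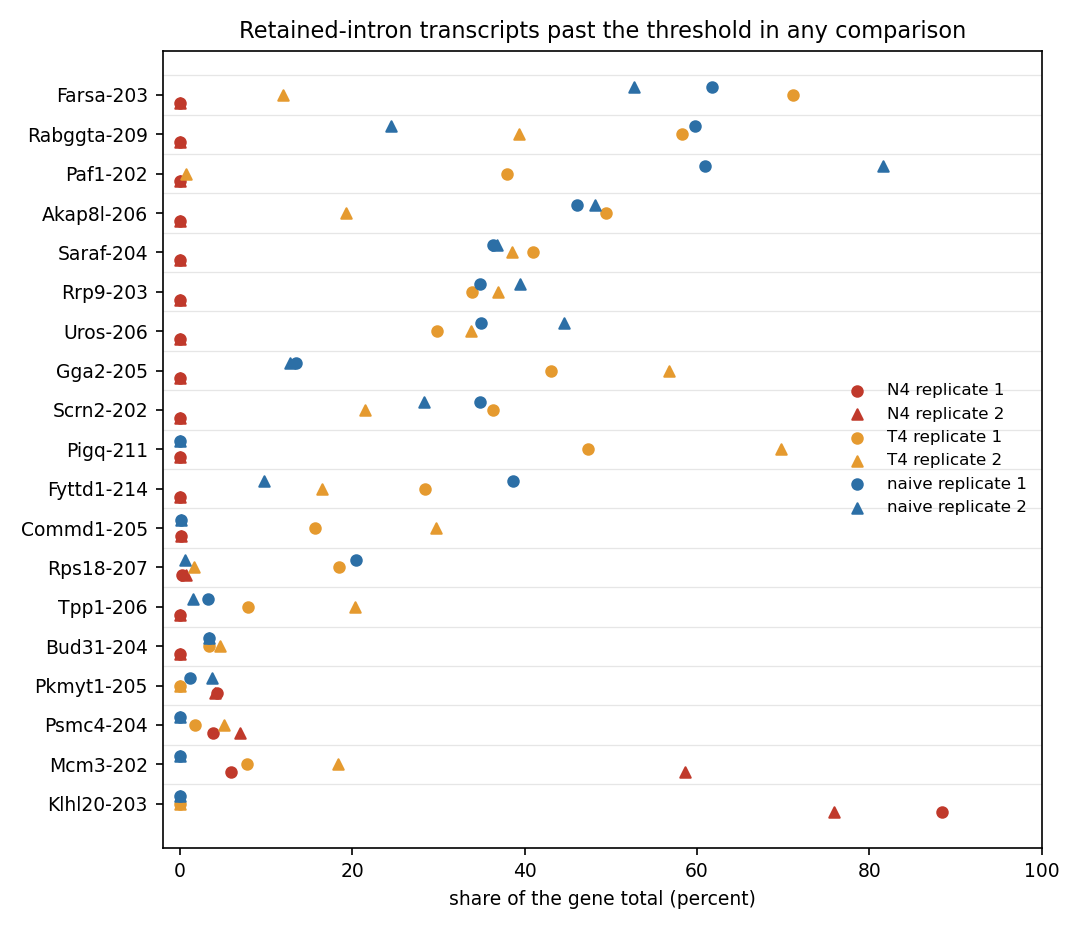
Share of the gene total in each of the 6 libraries for the 19 retained-intron transcripts called in any comparison; colours are groups, circles are replicate 1 and triangles replicate 2. In 12 rows both N4 libraries lie at 0 while both T4 libraries lie above it, and in the row of Klhl20-203 only the N4 libraries lie above 0.

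A value of 0 in both libraries of a group was more frequent in N4 than in T4, for members and other transcripts alike. A total of 70 members were at 0 in both N4 libraries and at 100 counts or more in both T4 libraries, which is 1.74% of the 4024 members at that level in T4. Among the other transcripts of eligible genes it was 478 of 17496 (2.73%). The other way round there were 9 members (0.384%), beside 0.405% of the other transcripts. Of the 70, 53 hold a whole intron, and their median share in T4 was 16.1%. They lie in 69 genes, and counted once per member the gene totals had a median of 969 counts in N4 and 4220 in T4, with the TMM-scaled gene level lower in N4 for 61 of the 70 members. Between N4 and naive there were 39 members at 0 in N4 (1.35%, beside 1.98% of other transcripts) and 9 at 0 in naive (0.384%, beside 0.594%). Between naive and T4 there were 30 at 0 in naive (0.746%, beside 0.966%) and 5 at 0 in T4 (0.173%, beside 0.527%). The exons of 21 of the 70 overlap those of another gene.

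The members with the most counts were picked by count and not by change, unlike the called ones, and several had steady shares. Ppia-204 (cyclophilin A, a peptidyl-prolyl isomerase) had the most, with shares of 23.2% and 22.1% with N4, 23.3% and 23.1% with T4, and 22.8% and 22.9% in naive. All 6 libraries lay close together, in a gene whose total was at least 3598358 counts in each. Nkg7-202, from the gene for a membrane protein of cytotoxic granules, was as even at 4.34% and 4.29%, 4.33% and 4.19%, and 4.38% and 4.38%. Shisa5-213, from the gene for an endoplasmic reticulum protein linked to apoptosis, had 12% and 7.41% with N4, 23.7% and 24.7% with T4, and 20.3% and 20.6% in naive. Both N4 libraries lay below the other 4, and the change in relative use against T4 was -1.33 ± 0.33 on the log2 scale (SE), with an adjusted p of 0.73 by edgeR. Rps18-205 had 12% and 12.9%, 17.3% and 16.5%, and 15.6% and 14.7%, and Rpl37a-204, also of a ribosomal protein gene, 14.9% and 13.8%, 18% and 16.9%, and 17.3% and 16.6%. In both, N4 again lay below all other libraries, and the tests gave an adjusted p of 1.0 by edgeR. Of the 10 members with the most counts, Ftl1-205 (18.7% to 24.5%), Atp5j-208 (25.5% to 32.1%), Ms4a4b-206 (7.74% to 9.85%), Tmcc1-211 (97.2% to 99.9%) and Fam221b-202 (100% throughout) completed the list. Tmcc1-211 and Fam221b-202 took nearly all of their gene totals, which leaves a share little room to vary. The exons of Ftl1-205 and of Tmcc1-211 each overlap those of another gene, whose reads cannot be told apart from theirs. Ppia-204 alone made up 0.576% and 0.604% of the counts of eligible genes in N4 and 0.307% and 0.335% in T4. The TMM-scaled level of the gene was 1.79 higher on the log2 scale in N4 (adjusted p = 0.049 by edgeR). Scaling by library size would move that difference by -0.86.

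**Figure D4:**
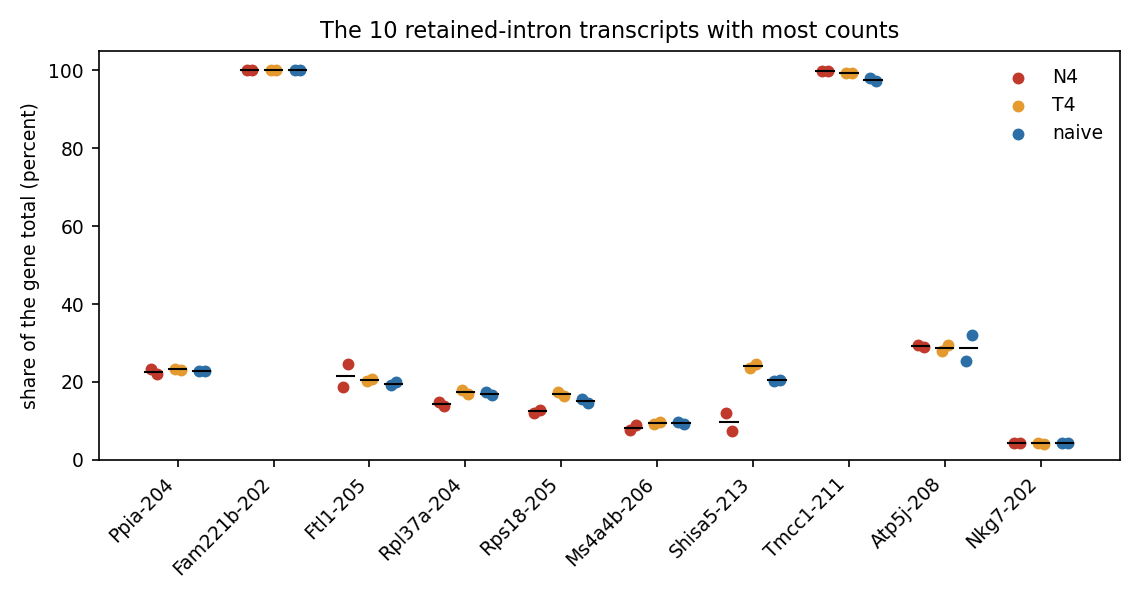
Share of the gene total in each library for the 10 retained-intron transcripts with the most counts, ordered by mean level; points are libraries, bars the mean of 2. Ppia-204 stays between 22.1% and 23.3%, and Shisa5-213 is lower in both N4 libraries (12% and 7.41%) than in the other 4.

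Members were also ranked, as a description, by the size of the difference among those that did not overlap between groups, in genes with at least 1000 counts in every library. The 6 furthest above T4 in N4 were led by Ptpn11-203, from the gene for the phosphatase SHP2, with 98.8% and 89.2% with N4, 0.818% and 5.9% with T4, and 97.1% and 97% in naive. T4 was the group that stood apart there, and the gene had 1012 counts in naive replicate 2 and 1164 in N4 replicate 2. Gtf3c2-208, from a gene of the RNA polymerase III factor TFIIIC, had 84.3% and 84.5%, 0% and 4.69%, and 21.7% and 94.8%. Hdac7-213, from the gene for a histone deacetylase, had 82% and 75.8%, 0.716% and 9.49%, and 33% and 13.8%. The other 3 were Echs1-206 (62.1% and 80.8% with N4, 4.75% and 7.66% with T4), Atrip-206 (70% and 72.6%, 10.6% and 13.8%) and a member of Mcrs1 (36.8% and 64.7%, 1.09% and 2.3%). None of the 6 passed the test against T4, with edgeR adjusted p between 0.43 and 0.9. The 6 furthest below T4 in N4 were Pigq-211 and Farsa-203, described above, Poglut1-205 (0% and 23.8% with N4, 70.2% and 65.7% with T4), Pkn2-204 (44.4% and 0%, 73.5% and 67.8%), Pak1ip1-203 (0% and 0%, 61.5% and 27.1%) and Clptm1-205 (0% and 0%, 40.8% and 43.1%). The last 4 did not pass the test, with edgeR adjusted p between 0.16 and 1.0.

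From the same ranking in the comparisons with naive, 4 members are given, chosen after their values were seen and not the 4 largest. Taf1d-205, from a gene of the RNA polymerase I transcription machinery that also hosts small nucleolar RNAs, had 80.9% and 78.9% with N4, 32.1% and 32.7% with T4, and 15.1% and 29.1% in naive. Its exons overlap those of 2 other genes. Cd69-204, from the gene for the early activation receptor CD69, had 65.2% and 68.5% with N4, 63.9% and 71.0% with T4, and 24.7% and 19.0% in naive, so that both peptide groups lay above naive. Slc1a5-202, from the gene for a glutamine transporter, had 31.9% and 47.9% with N4, 62.9% and 69.2% with T4, and 89.1% and 90.3% in naive, without overlap between any 2 groups. Arid5a-215, from the gene for a protein that stabilises inflammatory mRNAs, had 35.1% and 55.9%, 57.7% and 65.9%, and 5.52% and 11.6%. None of these 4 passed the test in any comparison, with edgeR adjusted p between 0.52 and 1.0 for those of N4.

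By host gene, with the members of a gene summed and set against its other transcripts, edgeR's test over 5110 genes called 7 lower and 1 higher in N4 than in T4 (0.137% and 0.0196%). The 7 were Saraf, Uros, Scrn2, Commd1, Pigq, Bud31 and Park7, and the other was Snrnp25. Against naive, 6 were lower in N4 (Saraf, Uros, Scrn2, Bud31, Park7 and Srsf2) and 2 higher, Acp1 and Adpgk (0.117% and 0.0391%). T4 against naive gave Commd1, Kdsr and Smim3 higher and Snrnp25 lower (0.0587% and 0.0196%). Those that the rule for naming did not reach are named here because the counts are small, after their values were seen. The 8 calls of N4 against T4 moved with the libraries used: dropping the first or the second N4 library gave 17 and 1, dropping either T4 library 2 and 3, and dropping either naive library 29 and 26. Those of N4 against naive became 19, 2, 1, 4, 16 and 19 in the same order, and the 4 of T4 against naive became 1, 1, 1, 0, 6 and 7.

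Among these, Park7, the gene for the oxidative stress protein DJ-1, had low but tight summed shares, 0.0134% and 0.014% with N4, 0.494% and 0.491% with T4, and 0.412% and 0.413% in naive. Its change was -5.15 ± 0.62 against T4 and -4.90 ± 0.62 against naive (log2, SE, edgeR adjusted p = 0.014 and 0.044). Snrnp25, the gene for a protein of the minor spliceosome, had 11.5% and 7.31% with N4, 0.0541% and 0.0288% with T4, and 11.1% and 2.69% in naive (7.75 ± 0.77 for N4 against T4, edgeR adjusted p = 0.0034). T4 was thus the group that stood apart in Snrnp25, as it was in Commd1.

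The SR and TRA2 proteins, splicing factors that bind exons and recruit the spliceosome, held 31 members in 10 genes. In 9 of the 10 genes their summed share was below that of T4 in N4, without overlap in 6 (31.2% of all host genes), and higher in 1, Srsf11, also without overlap (16.1% of all host genes). The median difference was -2.1 points, beside -0.15 points over all host genes, and none of the 10 was called. Against naive 9 of 10 were lower, 6 without overlap (23.5% of all host genes), with a median of -2.7 points, beside -0.027 over all host genes, and 1 was called. That was Srsf2, with 0.517% and 0.819% with N4, 2.63% and 3.03% with T4, and 7.43% and 6.50% in naive, a change of -3.42 ± 0.36 on the log2 scale (SE, edgeR adjusted p = 0.0077). The 3 groups did not overlap in Srsf2, whose only member also overlaps the exons of another gene, and the change against T4 was -2.12 ± 0.35 with an adjusted p of 0.17 by edgeR. Tra2a had 21.8% and 20.3% with N4, 41.4% and 44.1% with T4, and 55.8% and 41.4% in naive, nearly all of it in Tra2a-203, which holds part of an intron. Both N4 libraries lay below the other 4, and its adjusted p was 1.0 against T4 and 0.72 against naive by edgeR. Srsf7 had 7.25% and 8.86%, 10.7% and 11.1%, and 12.1% and 15.4%, again with N4 lowest and no overlap. Srsf5 (19.1% and 22.9%, 24% and 21.8%, 28.4% and 33.4%) overlapped between the peptide groups, and Tra2b (3.06% and 3.14%, 2.23% and 4.38%, 1.91% and 4.73%) between all groups. Srsf11 had 18.5% and 17.8% with N4, 11.7% and 11.2% with T4, and 15.9% and 25.6% in naive.

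**Figure D5:**
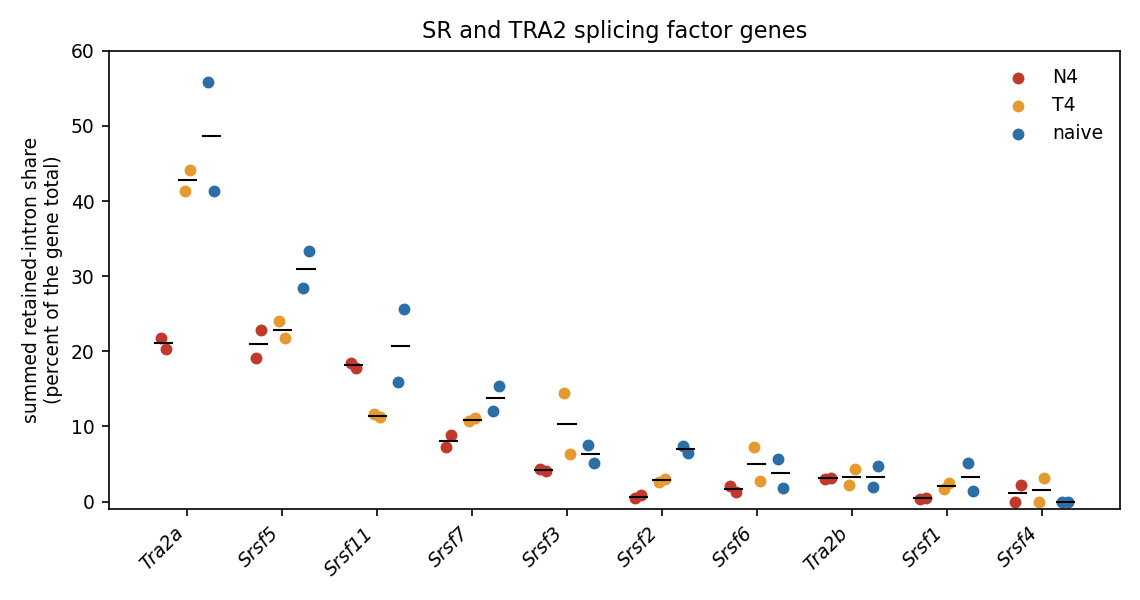
Summed retained-intron share of the gene total for the 10 SR and TRA2 genes that host members, by library; points are libraries and bars the mean of 2. The N4 libraries lie lowest in Tra2a, Srsf7 and Srsf2, and above T4 in Srsf11.

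Among the kinases that phosphorylate SR proteins, slightly more genes were higher than lower in N4 against T4, but not against naive. Of 8 genes with 34 members, 5 were higher and 3 lower in N4 than in T4, beside 2352 higher and 3518 lower of all host genes. The median was 2.9 points, beside -0.15 points over all host genes, and none was called. Against naive 4 were higher and 4 lower, beside 2714 higher and 3119 lower of all host genes. Clk1 had 19.5% and 42% with N4, 16.7% and 17.1% with T4, and 21.0% and 14.3% in naive, and the high value of N4 replicate 2 came from Clk1-212, at 29.2% there and between 2.87% and 3.72% in the other 5 libraries. Clk1-204, which holds 1345 bases of whole introns, was steady at 12.2% and 10.2%, 11.3% and 12.1%, and 13.6% and 8.31%. Clk4 had 26.5% and 27.8%, 20.3% and 23.2%, and 23.8% and 31.4%. Clk3 had 21.1% and 23.3% with N4, 11.5% and 9.53% with T4, and 10.1% and 10.9% in naive, with both N4 libraries above the rest (edgeR adjusted p = 1.0).

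Other lists of genes gave counts of host genes lower and higher in summed share in N4 against T4 as follows, beside 3518 lower and 2352 higher of all host genes. The 26 proteasome genes had 21 lower and 5 higher, and the 19 hnRNP and PTB genes 15 lower and 4 higher. The 43 spliceosome and speckle genes had 25 lower, with Bud31 called, and 18 higher. The 25 genes of T cell receptor signalling had 17 lower and 8 higher, the 25 cell cycle genes 17 and 8, and the 13 glycolysis genes 10 and 3. The 15 genes of RNA export and decay had 9 lower and 6 higher, the 8 genes with reported detained or regulated introns 3 and 5, the 6 cytotoxic effector genes 4 and 2, and the 6 naive and memory genes 4 and 2. Apart from Bud31, no gene of these lists was called in N4 against T4.

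Examples show how these counts were made up. In Bcl10, a signalling adaptor of the antigen receptor, the summed share was 11.8% and 13.4% with N4, 22.8% and 27.7% with T4, and 14.0% and 10.3% in naive, highest in T4 (edgeR adjusted p = 1.0 against T4). Cd3e, a signalling chain of the T cell receptor, went the other way with 21.8% and 43.3% with N4, 6.29% and 8.94% with T4, and 4.04% and 15.2% in naive (edgeR adjusted p = 0.28 and 0.27). Ccnd3, the gene for cyclin D3, had 4.79% and 8.48%, 11.8% and 18.8%, and 18.3% and 23.2%, with N4 below T4 and naive (edgeR adjusted p = 0.56 and 0.13). Lef1, a transcription factor of naive T cells, had 10.2% and 8.31%, 3.97% and 3.8%, and 1.75% and 1.22%, without overlap between groups (edgeR adjusted p = 1.0 and 0.34). Psmb7, a catalytic subunit of the proteasome, had 4.03% and 52.3% in N4 and between 45.5% and 49.4% elsewhere, so its lower mean in N4 came from 1 library. Mat2a, the gene for the methionine adenosyltransferase with a regulated intron, had 0.848% and 0.903% with N4, 3.48% and 3.66% with T4, and 1.67% and 0.753% in naive (edgeR adjusted p = 0.62 against T4).

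As levels in CPM rather than shares, no retained-intron transcript was called in any comparison by edgeR among 10021 tested (all 54550 transcripts, 0.0% called). At an unadjusted p under 0.05 there were 1312 in N4 against T4, 1338 in N4 against naive and 564 in T4 against naive (13.1%, 13.4% and 5.63%), beside 18.1%, 18.5% and 9.46% of all transcripts. DESeq2's Wald test on the same transcripts called 1310, 1485 and 465 members (13.1%, 14.8% and 4.64%), beside 16.2%, 18% and 6.43% of all transcripts, with no adjusted p given for 428 members. The median log2 level change of the members was -0.58, -0.36 and 0.13, beside -0.39, -0.24 and 0.02 over all transcripts tested, before any shift from the scaling given above.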

How the data were processed

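Polyadenylated RNA of 6 libraries was measured. The authors deposited estimated counts per gene and per transcript as whole numbers, not normalized, so no rounding was needed. Per the labels' protocols the miRNeasy Micro kit and a SMARTer ultra-low poly(A) kit were used. Tools listed in the submitters' processing notes, without their roles, are DESeq2 1.30.1, StringTie 2.1.0, STAR 2.7.1a, R 4.0.5 and SAMtools 1.9, with build mm39. For annotation release and strand setting, nothing is given in the sources used here. The estimates may scale with an assumed read length, so totals are not read numbers. A read of an exon shared by several transcripts is divided among them by a model, which adds error to shares.

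Transcript types, structures and sequences came from GENCODE M21 on GRCm38, matched by identifier without version (138346 of 142435 transcripts, 97.1%). In 115 host genes the gene total differs from the sum of its M21 transcripts. Exons of 2224 members (14.4%) overlap another gene on either strand. All columns of sample values were used (0 left over).

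Tests used edgeR 4.0.16 in R 4.3.3 (limma 3.58.1, DESeq2 1.42.0 for alternatives): filterByExpr, TMM, quasi-likelihood fits of 3 group means over 6 libraries, Benjamini-Hochberg at 0.05. Relative use had a common biological coefficient of variation of 1.09 and 2.13 prior degrees of freedom, and summed shares 0.586 and 3.41. The summed test covered the 5110 of 5955 host genes that passed the filter, where the plan named all. Tests were tried on simulated counts. Alternatives were other scalings, filters, tests, a replicate block, each library left out, length division and stricter members. Those on gene level, overlap and the largest members were added after seeing the data. Floors cover counting error only. The SE of a log2 change comes from the quasi-likelihood fit, and an SD is the spread between 2 libraries.

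Members and gene lists (12 pathway lists and markers of CD8 T cells and 6 other cell types) were chosen with earlier results of these data known. Named members were up to 6 called per comparison and direction with a mean share of at least 5 percent, the 10 with most counts, the 6 of largest difference without overlap per comparison and direction, up to 4 genes per list, and Clk1, Clk4, Tra2b, Srsf5 and Srsf7. Predicted genes and chromosome 18 were left out of that rule. Called members under that share, and list genes described as examples, are outside it and were chosen after their values were seen.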

Additional observations from a re-analysis of the deposited data

How the results depend on the processing

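Calls were few and moved with the method. For relative use (17, 14 and 3 calls for N4 against T4, N4 against naive and T4 against naive), limma on log2 odds gave 0, 0 and 0, the replicate block 7, 8 and 1, genes with at least 1000 counts 11, 9 and 3, no filter 13, 10 and 1, and leaving out a library 1 to 23, 3 to 18 and 0 to 7. For summed shares (8, 8 and 4), limma gave 2, 2 and 0, the replicate block 6, 4 and 2, and leaving out a library 1 to 29, 1 to 19 and 0 to 7. For levels of members (0 in each by edgeR), DESeq2 gave 1310, 1485 and 465, and library size scaling or no filter gave 11 in N4 against naive. For levels of host genes (579, 807 and 7), DESeq2 gave 1751, 1776 and 442, no filter 1156, 1163 and 147, the replicate block 1181, 1186 and 17, and leaving out a library 0 to 1571, 127 to 1528 and 0 to 67. The cause was not tested.

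The pooled N4 minus T4 difference (-1.1 points) was -0.9 after division by transcript length, -0.93 for members with a whole intron, -0.56 in genes within 1.5-fold and -0.65 without overlapping members, and -1.1 to -1.0 with a library left out. T4 minus naive (0.31 points) reversed to -0.036 without naive replicate 2. Leaving out each library gave -1.1 to -0.43 for N4 minus naive and -0.036 to 0.65 for T4 minus naive. The median N4 minus T4 difference (-0.15 points) was -0.27 by length and -0.26 with a whole intron, and -0.28 to -0.052 with a library left out. For N4 minus naive (-0.027) it was -0.062 by length, -0.065 at 1000 counts, -0.11 with a whole intron and -0.12 to 0.0 with a library left out. For T4 minus naive (0.049) it was 0.08, 0.023 and 0.046 under the same 3, and 0.0 to 0.12. Among all the pooled and median values, T4 minus naive without naive replicate 2 was the one reversal.

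The labels used here do not say whether same-numbered libraries are paired, and the main fits took them as unpaired. Deviations of same-numbered libraries from their group means correlated at 0.017, 0.08 and 0.037. Such a correlation cannot decide whether they share a mouse or a batch. With 2 libraries per group, a member's share rests on few counts where its gene total is low.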
